A study of Homo sapiens with 8 samples.

Results

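The 35 genes described here are mitotic genes: they encode proteins that drive cells into mitosis, build the spindle, hold and move the chromosomes and divide the cell. They were chosen by symbol, as a list of genes with known roles in mitosis, from the 58440 genes of a table of read counts. All 35 had enough reads to be among the 17144 genes tested. The cells were HEK293, a human embryonic kidney line. Messenger RNA was sequenced from cells that stably express HTR1E, a receptor for serotonin that signals through inhibitory G proteins, and from control cells, each without added ligand or after serotonin, in 8 libraries that form 4 groups of 2. All cells were starved of serum for 3 h, and the treated cells then received 1 µM serotonin for 1 h. The sources do not say whether the stable line is 1 clone or a pool, nor whether the 2 libraries of a group came from separate cultures, so the p-values measure the spread between these libraries, which may be technical.

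The names of the count columns give the treatment (Control, no ligand, or Serotonin) and a letter, but no label says which letter is which cell line. The line was therefore read from the receptor's own counts. The 4 libraries with the letter A, 2 of each treatment, held 1353 to 1836 counts of HTR1E, and the 4 with the letter B (Control_B, Control_BR, Serotonin_B and Serotonin_BR) held 0 to 3. They are called the HTR1E-high and the HTR1E-low libraries, and HTR1E itself was not tested because it made the split. The response to serotonin over both lines needs only the names.

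Mitotic genes are transcribed late in the cell cycle. Cyclin B binds CDK1 to start mitosis, PLK1 and the Aurora kinases carry it on, the spindle checkpoint (TTK, BUB1, BUB1B) holds the cell until every chromosome is attached, and the anaphase-promoting complex with CDC20 and UBE2C then marks cyclin B for destruction. In resting cells the DREAM complex, built on the MuvB core, keeps many of these genes silent, and in dividing cells MuvB joins MYBL2 (B-MYB) and FOXM1 to switch them on. MuvB reaches its targets through a short promoter element, the cell cycle genes homology region (CHR), with the letters TTTGAA or, in a variant of it, TTTAAA. It often lies near boxes with the letters CCAAT, which NF-Y binds. In bulk RNA, fewer cells in mitosis and less of these messages per mitotic cell cannot be told apart.

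The promoters of 5 members are shown because they carry this arrangement: those of DLGAP5 and ECT2, the members that passed the test between the lines, and those of CCNB1, CCNB2 and PLK1, which did not. Each is the 150 bases before a RefSeq start (GRCh38.p14), 5′ to 3′ on the gene's strand, with the letters of both CHR forms and of the CCAAT box, on either strand, in capitals. They lie at chr14:55191586-55191735 (minus strand) for DLGAP5, chr3:172750576-172750725 (plus) for the upstream of the ECT2 starts, chr5:69167000-69167149 (plus) for CCNB1, chr15:59104996-59105145 (plus) for CCNB2 and chr16:23678739-23678888 (plus) for PLK1.
DLGAP5: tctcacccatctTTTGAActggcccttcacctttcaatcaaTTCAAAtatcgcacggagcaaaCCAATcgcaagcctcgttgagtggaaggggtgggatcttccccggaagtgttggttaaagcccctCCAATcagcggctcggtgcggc
ECT2: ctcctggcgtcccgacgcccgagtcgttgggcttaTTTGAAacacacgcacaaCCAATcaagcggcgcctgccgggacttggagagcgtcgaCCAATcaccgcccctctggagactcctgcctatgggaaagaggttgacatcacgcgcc
CCNB1: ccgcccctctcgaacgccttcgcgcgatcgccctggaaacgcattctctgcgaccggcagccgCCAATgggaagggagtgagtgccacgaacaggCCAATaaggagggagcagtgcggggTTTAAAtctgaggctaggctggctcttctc
CCNB2: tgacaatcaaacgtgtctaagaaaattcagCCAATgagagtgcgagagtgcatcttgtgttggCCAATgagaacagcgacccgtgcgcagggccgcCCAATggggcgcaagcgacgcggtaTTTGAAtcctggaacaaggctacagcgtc
PLK1: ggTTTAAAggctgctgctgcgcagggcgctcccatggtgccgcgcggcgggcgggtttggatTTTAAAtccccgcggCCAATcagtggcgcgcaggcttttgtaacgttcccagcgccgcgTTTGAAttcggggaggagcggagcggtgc

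RefSeq promoter windows of 300 bases (250 before and 50 after the start) were found for 31 of the 35 members, 37 windows in all. TTTGAA, on either strand, was in 75.7% of the members' windows and in 15.2% of all 35116 windows. The variant TTTAAA was in 32.4% against 12.2%, and CCAAT in 75.7% against 34.6%. Both TTTGAA and CCAAT were in 62.2% of the members' windows and 5.9% of all windows. A match is a description of the letters and shows no binding.

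The libraries held 2604885 to 9072278 counts. In 6 of the 8, 17.9% to 24.6% of the counts fell on mitochondrial genes; Serotonin_BR had 36.3% and Control_B, the smallest library, 54.4%. The rank correlation between the 2 libraries of a group was 0.916 for Control_B with Control_BR and 0.966 to 0.989 in the other groups. The HEK293 marker list (NEFL, NEFM, INA, PAX2, CDH2, VIM) was detected in full, with a summed level of 531 to 647 normalised CPM (counts per library total after TMM scaling, which assumes that most genes do not differ between libraries) in the HTR1E-high and 412 to 589 in the HTR1E-low libraries. Most of that sum was VIM (299.52 to 456.4), and single markers differed between the lines in opposite directions. NEFM held 3.2 to 5.22 in the HTR1E-high and 0.58 to 1.34 in the HTR1E-low libraries, and PAX2 1.82 to 2.84 and 4.03 to 21.61. Of the markers of cells the culture should not hold, PTPRC and HBB were at 0 in all 8, and the summed blood, endothelial, liver and keratinocyte lists stayed at or below 5.76 normalised CPM. The fibroblast list, almost all COL1A1, held 26.9 to 32.3 normalised CPM in the HTR1E-high libraries and 12.1 to 44.1 in the HTR1E-low ones. Its part in the results below was not tested.

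The members' levels per length, as TPM (counts divided by exonic length and scaled to the same total in each library, mitochondrial genes left out; mean over the 8 libraries ± SD), spanned from 358 ± 206 for MKI67, the proliferation marker that coats mitotic chromosomes, to 6.3 ± 4.3 for PRC1. Of the cyclin B-CDK1 switch, CCNB1 stood highest (198 ± 77.6) and CDC25C, the phosphatase that activates CDK1, lowest (39.2 ± 10). Among the kinases AURKB, the enzyme of the chromosomal passenger complex, was at 308.5 ± 87.2 and PLK1 at 78.1 ± 9.5. In the checkpoint group the range was narrow, from BUB1B at 53.8 ± 13.9 to BUB1 at 74.1 ± 26.7. In the destruction group UBE2C, the ubiquitin-conjugating enzyme of the anaphase-promoting complex, was at 318 ± 140.5, CDC20, its activator, at 307.5 ± 36.7 and CDCA3 lowest at 87.5 ± 23.3. The ranges of mean ± SD of MKI67, UBE2C, AURKB and CDC20, the leading 4, overlap, and their order was not tested. The SDs are taken over both lines and treatments. MKI67 held 844.3 TPM in Control_B and 228.3 to 413.5 in the other libraries.

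The kinesins, motors of the spindle, ran from KIF18A at 21.9 ± 8.0 TPM to KIF2C at 90.8 ± 12.4. At the centromere, CENPF was highest (111.5 ± 32.0) and NUF2, a subunit of the NDC80 complex, lowest (43.3 ± 5.8). Among the spindle assembly factors NUSAP1, which bundles microtubules, held 175 ± 16.8 TPM. The cytokinesis gene ANLN, a scaffold of the contractile ring, was at 94.6 ± 39.1 and ECT2, which activates RhoA there, at 41.9 ± 15.6. TOP2A, the topoisomerase that untangles sister chromosomes, was at 260 ± 78.7. PRC1, which bundles the central spindle, has uncertain counts: 3181 of its 5525 exonic bases are shared on the same strand with the annotated gene ENSG00000284946, which held 30 to 342 counts against 13 to 60 for PRC1, and reads there may be divided or dropped. KIF4A has a near-identical copy, KIF4B, which held 0 to 4 counts against 87 to 630. CENPA shares 138 bases with SLC35F6 and BUB1B 457 with BUB1B-PAK6.

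**Figure D1:**
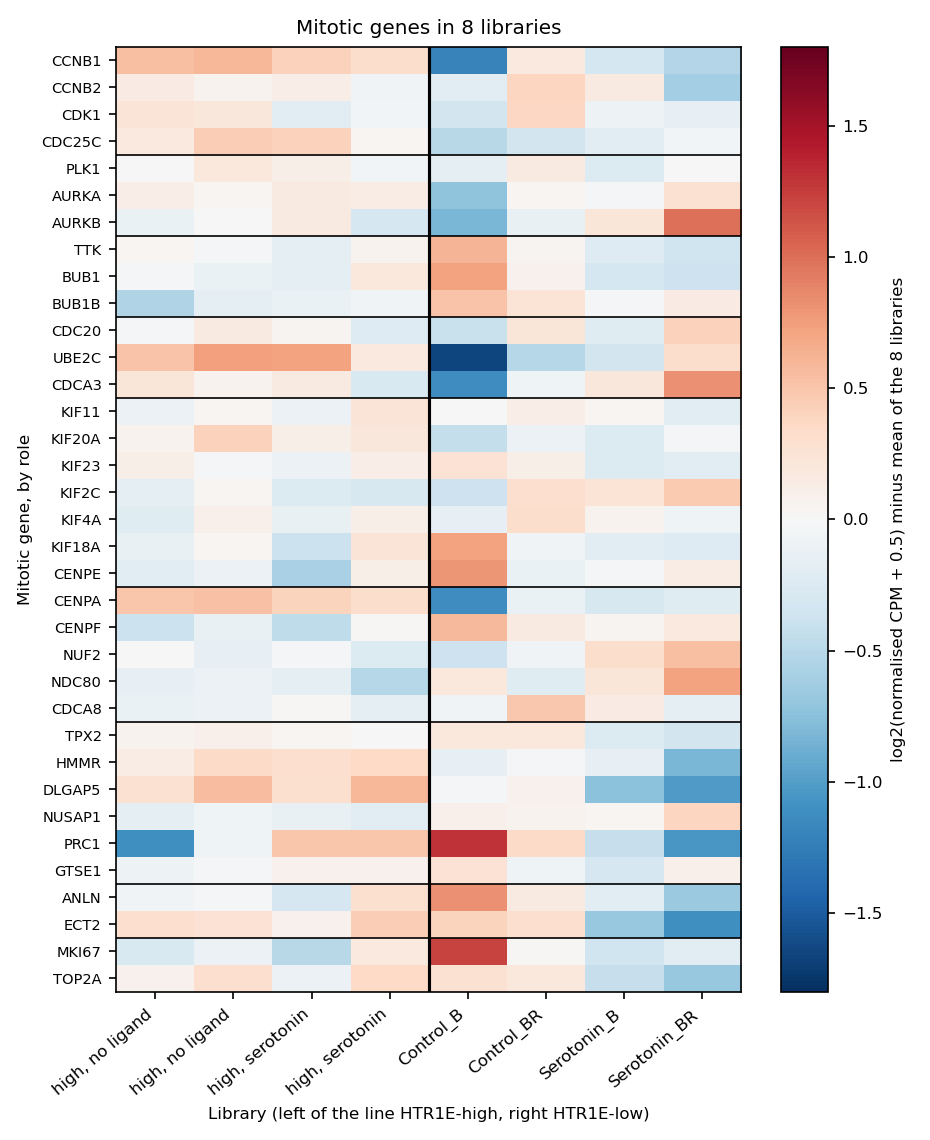
Each row is 1 of the 35 mitotic genes, grouped by role between black lines, and each column a library, HTR1E-high by treatment and HTR1E-low by name; colour is log2 of (normalised CPM + 0.5) minus that gene's mean over the 8 libraries. The HTR1E-high libraries stay near 0 for most genes, while Control_B is low for UBE2C, CCNB1, CENPA and CDCA3 and high for MKI67 and PRC1, and DLGAP5 and ECT2 are low in both HTR1E-low libraries after serotonin.

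The summed level of the 35 members was 2829 to 3309 normalised CPM in the HTR1E-high libraries. In the HTR1E-low libraries it was 3280, 2738 and 3040 in Control_BR, Serotonin_B and Serotonin_BR and 4214 in Control_B. Of the 4214 in Control_B, 1709 belonged to MKI67 alone, against 743 in Control_BR.

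Control_B also departed from its partner by gene length. Across the 35 members, the log2 ratio of Control_B to Control_BR rose with exonic length (Spearman rho 0.70, a description over genes of the same 2 libraries; 0.30 over 17122 genes tested). The shortest member, UBE2C, held 20.2 normalised CPM in Control_B and 45.2 in Control_BR, CENPA 6.3 and 13.1, and CCNB1 35.7 and 93.1. The long CENPE held 121.5 and 64.5, and ANLN 166 and 104.5. In all, 15 of the 35 members differed by more than 1.5-fold between Control_B and Control_BR. This was so for 7 in the other HTR1E-low pair, 4 in the treated HTR1E-high pair and 1 in the untreated HTR1E-high pair. The share over all genes was not counted, so these numbers describe the members only. The treated HTR1E-high pair showed a relation to length too, with rho -0.77 for the larger of its libraries over the smaller.

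**Figure D2:**
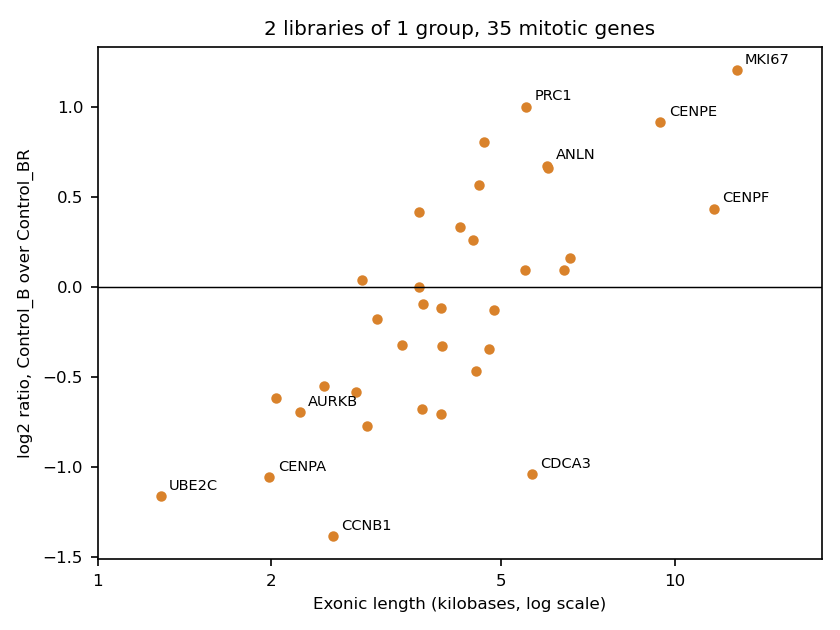
The log2 ratio of normalised CPM in Control_B to Control_BR, 2 libraries of 1 group, is plotted against exonic length in kilobases (log scale), 1 point per mitotic gene. Short genes such as UBE2C and CENPA lie below 0 and the longest, MKI67 and CENPF, above it.

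The difference between the lines without ligand asks whether stable HTR1E expression goes with other mitotic transcript levels before serotonin. No member passed the test: 0 of 35 at an adjusted p below 0.05 (edgeR quasi-likelihood, Benjamini-Hochberg over 17144 genes), against 2.33% of all genes tested. At an unadjusted p below 0.05 there were 6 members, against 20.1% of all genes, and DESeq2 called 1, UBE2C, against 5.21%. The median log2 fold change (HTR1E-high over HTR1E-low) was -0.08 for the members and 0.04 for all genes. Above 0 were 14 of 35 members and 8895 of the 17144 genes tested. With scaling by total counts alone both medians moved up together, to 0.27 and 0.37, and without Control_BR the members' median was 0.01.

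UBE2C came nearest. It held 92.8 and 109 normalised CPM in the 2 untreated HTR1E-high libraries, and 20.2 and 45.2 in Control_B and Control_BR. Both HTR1E-high values were above both HTR1E-low ones, and the log2 fold change was 1.61 ± 0.40 (SE; adjusted p = 0.07225, edgeR). CENPA, the histone that marks the centromere, held 20.4 and 20.9 against 6.3 and 13.1, a log2 fold change of 1.04 ± 0.34 (adjusted p = 0.1399, edgeR), on 11 counts in Control_B. BUB1B held 28.4 and 36.6 against 59.3 and 49.5, a log2 fold change of -0.74 ± 0.25 (adjusted p = 0.1543, edgeR). PRC1 held 2.1 and 4.8 against 13.2 and 6.6, a log2 fold change of -1.46 ± 0.52 (adjusted p = 0.1666, edgeR).

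The roles leaned in different directions without passing the test. The 3 destruction genes had log2 fold changes of 0.13 to 1.61 and the 4 switch genes -0.03 to 0.92. The 3 checkpoint genes lay at -0.74 to -0.35, the 2 cytokinesis genes at -0.58 and -0.08, and the 7 kinesins at -0.56 to 0.51. MKI67 stood at -0.92 ± 0.44, with 608 and 684 normalised CPM in the HTR1E-high libraries and 1709 and 743 in the HTR1E-low ones, and the 2 HTR1E-low values lay farther from each other than Control_BR from either HTR1E-high value. With a length and GC trend removed from each library, UBE2C was called (log2 fold change 1.53 ± 0.34, adjusted p = 0.04083, edgeR). Without Control_B and Serotonin_BR its log2 fold change was 1.14. That leaves Control_BR and Serotonin_B each alone in its group, so spread within the HTR1E-low groups is no longer measured.

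After serotonin, 2 of the 35 members were higher in the HTR1E-high libraries and none lower: DLGAP5, which stabilises spindle microtubules around the chromosomes, and ECT2, the activator of RhoA at the cleavage furrow. Of all genes tested, 3.93% were called in either direction and 1.8% were called higher. The members' count of 2 is too small to set apart from that share. DESeq2 called the same 2 (8.84% of all genes). At an unadjusted p below 0.05 there were 8 members, 5 higher and 3 lower, against 23.8% of all genes. The median log2 fold change was 0.17 for the members and 0.02 for all genes, with 23 of 35 members and 8760 of the 17144 genes tested above 0.

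DLGAP5 (ENSG00000126787.12, chr14:55148112-55191678 on hg38, minus strand) held 43.5 and 53.8 normalised CPM in the 2 treated HTR1E-high libraries and 21.0 and 17.3 in Serotonin_B and Serotonin_BR. Without ligand it held 43.0 and 52.2 in the HTR1E-high and 35.1 and 37.5 in the HTR1E-low libraries. All 4 HTR1E-high values were above all 4 HTR1E-low ones, and the 2 treated HTR1E-low libraries were the lowest of the 8. The log2 fold change after serotonin was 1.34 ± 0.26 (SE, 2 libraries against 2; adjusted p = 0.02247, edgeR), a 2.54-fold difference.

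ECT2 (ENSG00000114346.13, chr3:172750682-172821474 on hg38, plus strand) held 39.5 and 50.8 normalised CPM in the treated HTR1E-high libraries and 23.2 and 17.1 in the treated HTR1E-low ones. Without ligand all 4 values lay close together, at 46.0 and 44.7 in the HTR1E-high and 49.5 and 46.4 in the HTR1E-low libraries. The log2 fold change after serotonin was 1.16 ± 0.26 (adjusted p = 0.04006, edgeR), a 2.24-fold difference. Only the treated HTR1E-low pair stood apart.

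Both calls rest on few libraries. Each was lost without any 1 of the 4 HTR1E-high libraries (DLGAP5 1.19 to 1.48, adjusted p = 0.07029 to 0.2507, and ECT2 0.98 to 1.32, adjusted p = 0.1155 to 0.357, edgeR) and without Serotonin_BR (1.2 and 0.95, adjusted p = 0.2457 and 0.3437). Scaling by total counts alone also lost both (1.61 and 1.42, adjusted p = 0.07752 and 0.1084). Levels in Serotonin_BR, relative to the mean of the libraries, rose with GC content (rho 0.40 over genes tested, against -0.37 to 0.26 in the others). DLGAP5 has 38.4% GC and ECT2 38%. With a length and GC trend removed from each library both stayed called (1.19 ± 0.2 and 0.96 ± 0.19, adjusted p = 0.01039 and 0.0197, edgeR). Without Control_B and Serotonin_BR together, Control_BR and Serotonin_B each stand alone in their group, so spread within the HTR1E-low groups is no longer measured. The log2 fold changes after serotonin were then 1.2 for DLGAP5, 0.95 for ECT2 and 0.81 for UBE2C. With all libraries UBE2C stood at 0.46 ± 0.39 (adjusted p = 0.5055, edgeR). Its treated groups overlapped, with 107.5 and 73.3 normalised CPM in the HTR1E-high and 51.4 and 80.4 in the HTR1E-low libraries.

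Other spindle and cytokinesis genes did not pass. HMMR, a partner of TPX2 at the spindle, held 44.5 and 46.3 normalised CPM against 32.4 and 20.1, a log2 fold change of 0.79 ± 0.28 (adjusted p = 0.1267, edgeR). PRC1 held 7.4 in both HTR1E-high libraries against 3.7 and 2.2, at 1.32 ± 0.51 (adjusted p = 0.1539). TPX2, which activates AURKA on the spindle, held 96.4 and 94.6 against 79.7 and 74.5, at 0.31 ± 0.24. GTSE1 stood at 0.18 ± 0.26, and NUSAP1, lower in all 4 HTR1E-high libraries, at -0.40 ± 0.25. ANLN held 75.8 and 115 against 81.3 and 59.1, at 0.44 ± 0.33, and its groups overlapped.

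Of the 5 centromere and kinetochore genes none passed, with log2 fold changes from -0.83 for NDC80 to 0.63 for CENPA. NDC80 held 36.0 and 28.1 normalised CPM against 47.1 and 66.7, a log2 fold change of -0.83 ± 0.28 (adjusted p = 0.1161, edgeR), and its partner NUF2 24.9 and 21.4 against 31.9 and 37.5, at -0.58 ± 0.26 (adjusted p = 0.2013). CDCA8, a subunit of the chromosomal passenger complex, was at -0.06 ± 0.27 and CENPF at -0.32 ± 0.31. The 7 kinesins lay between -0.63 for KIF2C, which removes wrongly attached microtubules, and 0.29 for KIF20A. The switch genes lay between -0.01 for CDK1 and 0.79 for CCNB1, and the checkpoint genes between -0.16 and 0.38. PLK1 was at 0.14 ± 0.26, AURKA at 0.02 ± 0.29 and AURKB at -0.71 ± 0.35.

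**Figure D3:**
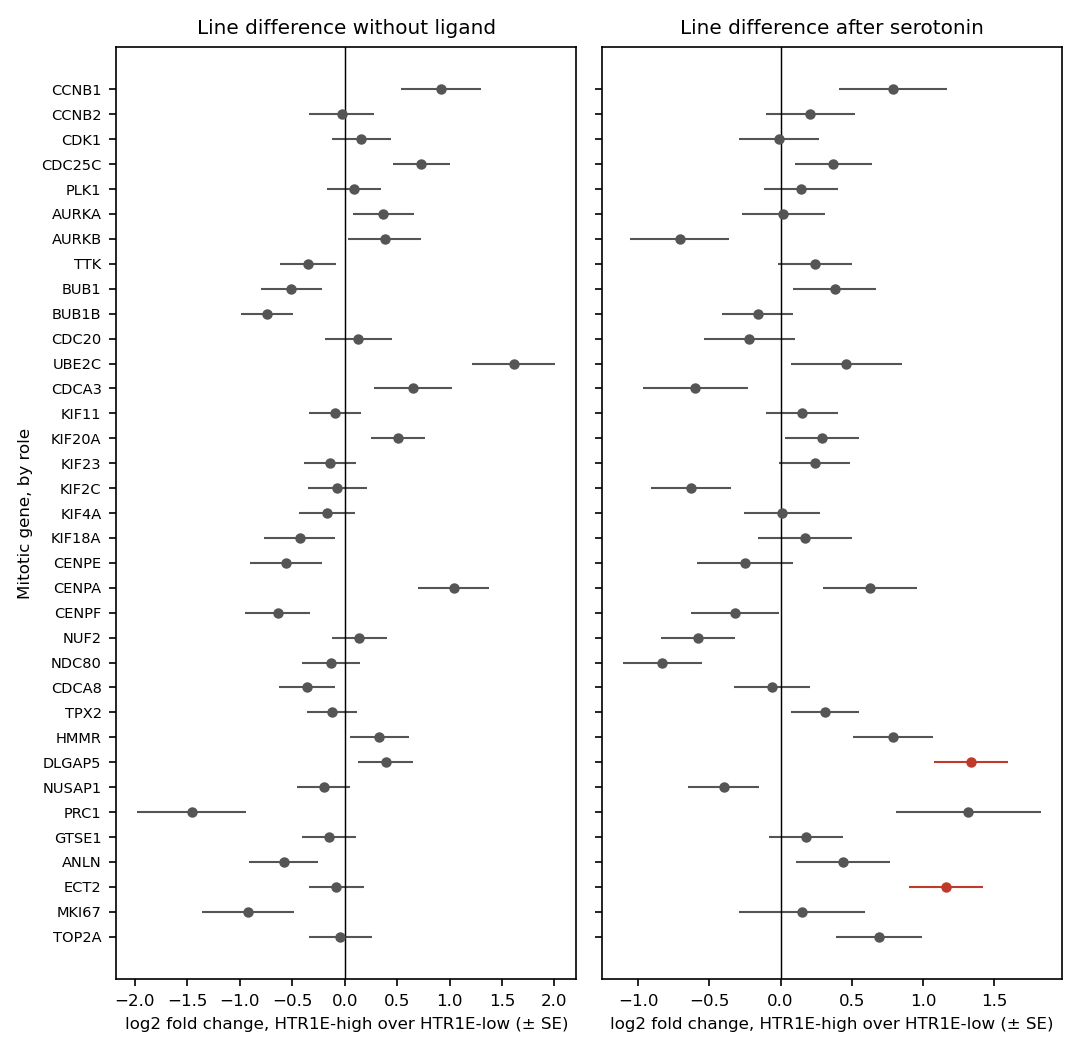
Points are edgeR log2 fold changes (HTR1E-high over HTR1E-low libraries) of the 35 mitotic genes and bars their SE, without ligand on the left and after serotonin on the right; the horizontal scales differ. Red marks an adjusted p below 0.05: DLGAP5 and ECT2 after serotonin, and no gene without ligand.

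Over both treatments, a comparison added after the data were seen, 0 of 35 members were called by edgeR (6.31% of all genes), 7 had an unadjusted p below 0.05 (21.9%), and DESeq2 called 4, CENPA, CCNB1, DLGAP5 and UBE2C (12.4%). The log2 fold changes of these 4 were 0.83 ± 0.24, 0.86 ± 0.27, 0.87 ± 0.24 and 1.03 ± 0.34, with adjusted p (edgeR) of 0.07574, 0.09655, 0.06007 and 0.1059. Without Control_B and Serotonin_BR, which leaves Control_BR and Serotonin_B each alone in its group, these log2 fold changes were 0.65, 0.53, 0.73 and 0.97.

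In 6 members all 4 HTR1E-high libraries were above all 4 HTR1E-low ones, as they were in 9.96% of all genes tested: CCNB1, CDC25C, KIF20A, CENPA, HMMR and DLGAP5. In 3 they were all below, against 7.62% of all genes: BUB1B, CENPF and NUSAP1. CCNB1 held 103 to 125 normalised CPM in the HTR1E-high libraries and 35.7, 93.1, 65.8 and 57.0 in Control_B, Control_BR, Serotonin_B and Serotonin_BR. CENPA held 17.9 to 20.9 against 6.3 to 13.1. KIF20A, the kinesin that carries AURKB to the central spindle, held 48.0 to 61.4 against 34.0 to 45.1, and CDC25C 21.1 to 28.1 against 14.4 to 19.8. CENPF, a large kinetochore protein, held 162 to 226 against 231 to 336, and NUSAP1 76.7 to 84.0 against 90.6 to 117. BUB1B held 28.4 to 39.8 against 40.9 to 59.3. HMMR held 39.3 to 46.3 against 20.1 to 35.

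**Figure D4:**
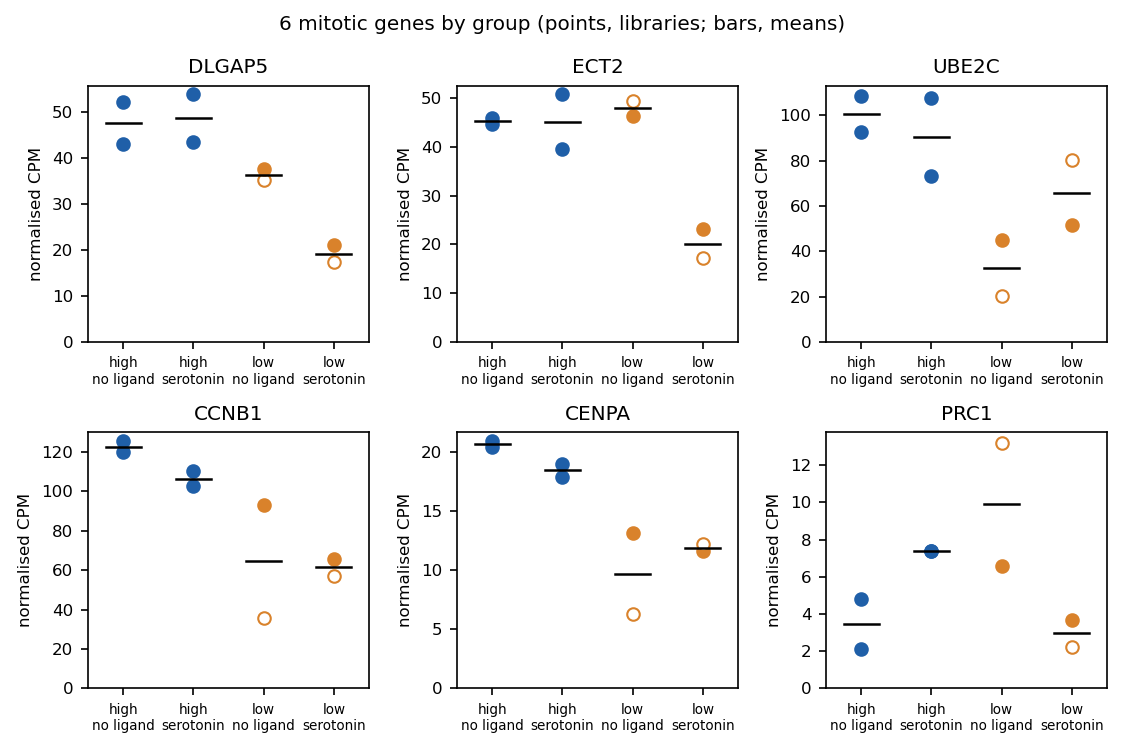
Normalised CPM of 6 mitotic genes in the 4 groups; each point is a library, blue HTR1E-high and orange HTR1E-low, the open points Control_B and Serotonin_BR, and bars are group means. DLGAP5 and ECT2 are lowest in the treated HTR1E-low pair, CCNB1 and CENPA are higher in every HTR1E-high library, and UBE2C and PRC1 spread widely between the HTR1E-low libraries.

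Serotonin response in the HTR1E-high libraries, the cells with the receptor, was not detected in these genes. None of the 35 members was called (edgeR; 0% of all genes tested), 0 had an unadjusted p below 0.05 (0.426% of all genes), and DESeq2 called 0 (0%). Even with no response, a share of about 0.05 of all genes would fall below that threshold. The spread was estimated over all 8 libraries together, and the test was conservative here, so it may miss a response. Of the 35, 34 had a log2 fold change (serotonin over no ligand) between -1 and 1, as did 16602 of the 17144 genes tested. The median was -0.05 for the members against -0.02 for all genes. The exception among the members was PRC1, with 2.1 and 4.8 normalised CPM before and 7.4 and 7.4 after, at 1.08 ± 0.50 (adjusted p = 1, edgeR). CDK1, the kinase of the switch, held 96.5 and 95.0 before and 71.7 and 78.9 after, the lowest value of the set at -0.35 ± 0.28. BUB1B stood at 0.26 ± 0.25, DLGAP5 had means of 47.6 ± 6.5 and 48.6 ± 7.3 (SD, n = 2) and ECT2 of 45.4 ± 0.9 and 45.2 ± 8.0.

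In the HTR1E-low libraries, 0 of 35 members were called by edgeR, where 1 gene in all was called (0.00583%). At an unadjusted p below 0.05 there were 12 members, 4 higher and 8 lower, against 27.7% of all genes, and DESeq2 called 3, ECT2, PRC1 and AURKB, against 10.8%. The median log2 fold change was -0.19 for the members and 0.02 for all genes. The members' median turned to 0.05 without Control_BR and to 0.02 with length and GC offsets. ECT2 went from 49.5 and 46.4 normalised CPM to 23.2 and 17.1, at -1.25 ± 0.27 (adjusted p = 0.06977, edgeR), and the pairs did not overlap. DLGAP5 went from 35.1 and 37.5 to 21.0 and 17.3, at -0.93 ± 0.26 (adjusted p = 0.08251, edgeR), also without overlap. PRC1 went from 13.2 and 6.6 to 3.7 and 2.2, at -1.70 ± 0.53 (adjusted p = 0.0949).

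By role, the cytokinesis genes (-1.25 and -0.94), MKI67 and TOP2A (-1.01 and -0.78) and the 3 checkpoint genes (-0.79 to -0.32) had values below 0. The 3 destruction genes (0.19 to 1.06) had values above 0. The other roles were mixed: the kinases ran from -0.12 for PLK1 through 0.41 for AURKA to 1.08 ± 0.35 for AURKB (adjusted p = 0.1013, edgeR), the switch genes from -0.31 to 0.29, the kinesins from -0.59 to 0.35, the centromere and kinetochore genes from -0.27 to 0.65, and the spindle assembly factors from -1.70 to 0.14. AURKB held 66.8 and 108 normalised CPM before and 137 and 235 after. The group without ligand contains Control_B, whose members ran with length, and the treated group Serotonin_BR. Without both, Control_BR and Serotonin_B each stood alone in their group, and AURKB was at 0.33. Over all alternatives tried, AURKB lay at 0.33 to 1.51 and PRC1 at -2.12 to -0.86. ECT2 lay at -1.47 to -0.88 and DLGAP5 at -1.06 to -0.69.

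The difference between these responses asks whether serotonin acts otherwise where HTR1E is expressed. No member was called (edgeR; 0% of all genes), 4 had an unadjusted p below 0.05 (15.6%), and DESeq2 called 0 (0.483%). The median difference in log2 fold change (HTR1E-high minus HTR1E-low) was 0.24 for the members and -0.04 for all genes. The members' median turned to -0.05 without Control_BR and to -0.02 with length and GC offsets. The members with the smallest p were PRC1 at 2.78 ± 0.73, ECT2 at 1.24 ± 0.37 (both adjusted p = 0.2945, edgeR), DLGAP5 at 0.96 ± 0.36 (adjusted p = 0.296) and CDCA3, a trigger of mitotic entry, at -1.25 ± 0.52 (adjusted p = 0.3094). For ECT2 and DLGAP5 the called difference between the lines after serotonin is thus not shown to differ from that without ligand. Without Control_BR, Control_B alone stands for its group, so spread within that group is no longer measured. The differences were then 3.17 for PRC1, 1.24 for ECT2 and -1.91 for CDCA3. DLGAP5 lay between 0.78 and 1.11 in the fits without 1 library.

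Over both lines, where the treatment in the column names is enough, 0 of 35 members were called (edgeR; 0% of all genes), 1 had an unadjusted p below 0.05 (3.88%), ECT2, and DESeq2 called 0 (0%). All 35 log2 fold changes lay between -0.62 for ECT2 (± 0.27, adjusted p = 0.7015, edgeR) and 0.54 for AURKB, with a median of -0.11 against 0 for all genes. DLGAP5 stood at -0.44 and MKI67 at -0.48 ± 0.35.

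In 12 of the 35 members the log2 fold change stayed within 0.5 of 0 in all 7 comparisons: CCNB2, CDK1, PLK1, AURKA, CDC20, KIF11, KIF23, KIF4A, CDCA8, TPX2, NUSAP1 and GTSE1. The share over all genes was not counted, and the comparisons reuse the same 4 groups, so this describes the members' estimates only. The 12 include CDK1, PLK1 and AURKA, but not AURKB, which ranged from -1.09 to 1.08. PLK1 had the narrowest range, from -0.12 to 0.14, with 55.1 to 74.3 normalised CPM over the 8 libraries. PRC1, whose counts are uncertain, had the widest, from -1.70 to 2.78, and UBE2C followed among the others, from -1.15 to 1.61.

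Other cell cycle genes were read beside the members. In the line difference after serotonin, where 3.93% of all genes were called by edgeR and 8.84% by DESeq2, 1 of 65 further mitotic genes was called by edgeR (2 by DESeq2, 1 higher and 1 lower). It was CENPI, a centromere protein, which was higher in the HTR1E-high libraries (log2 fold change 1.77 ± 0.28, adjusted p = 0.01161, edgeR). It held 28.5, 31.3, 32.5 and 41.1 normalised CPM in the HTR1E-high and 17.9, 15.2, 12.5 and 9.0 in the HTR1E-low libraries, without overlap. Of 16 cell cycle brakes, 2 were lower in the HTR1E-high libraries by edgeR (3 lower by DESeq2): BTG1, an antiproliferative factor (-1.47 ± 0.27, adjusted p = 0.01975), and GADD45B, a stress-induced gene (-1.75 ± 0.36, adjusted p = 0.0284). BTG1 held 65.8 to 76.9 normalised CPM in the HTR1E-high libraries and 131 to 199 in the HTR1E-low ones. GADD45B held 14.7 to 22.4 in the HTR1E-high and 21.3 to 64 in the HTR1E-low libraries. Its value in Control_B, 21.3, lay within the HTR1E-high range. None of the 25 S phase genes and none of the 12 MuvB and DREAM regulators was called in that comparison (3 and 1 at an unadjusted p below 0.05, and 1 each by DESeq2). Over both treatments edgeR again called 0 of either list. At an unadjusted p below 0.05, 5 S phase genes and 4 regulators were lower in the HTR1E-high libraries and 0 higher (21.9% of all genes, either direction). DESeq2 called 2 and 3 lower (12.4%).

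The activators of mitotic genes were not called in any comparison. FOXM1 held 125 to 137 normalised CPM in the HTR1E-high and 146 to 219 in the HTR1E-low libraries, at -0.57 ± 0.28 after serotonin (adjusted p = 0.24, edgeR). MYBL2 held 202 to 258 against 147 to 216, at 0.24 ± 0.29 (adjusted p = 0.6493). CDKN1A, the cyclin-dependent kinase inhibitor p21, held 110 to 151 against 85.6 to 191, at 0.20 ± 0.37 (adjusted p = 0.7752).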

How the data were processed

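The authors deposited 1 table of raw counts of read pairs per gene for the 8 libraries; per the file headers, featureCounts 2.0.1 counted reverse-stranded reads on GENCODE 28 gene models of hg38. Per the submitters' processing notes, cutadapt 3.4, FastQC 0.11.9, Bowtie2, STAR 2.7.8a and SAMtools 1.12 were also used, with no order given. Treatment came from the column names and the line from HTR1E counts. Counts were fitted with edgeR 4.0.16 in R 4.3.3 (TMM, filterByExpr with a minimum count of 10, robust quasi-likelihood, 4 groups, 8 libraries), with Benjamini-Hochberg adjustment over 17144 genes and a threshold of 0.05. DESeq2 1.42.0 was an alternative. The SE is the log2 fold change over the root of F. The code was tested on simulated data. The members and lists were chosen with earlier results of these data known. All 35 members were accounted for by role. Values were named for members called in any comparison, for those with the smallest adjusted p or largest fold change, and for the highest and lowest TPM of each role. Promoters came from RefSeq, and 4 members (AURKA, TTK, UBE2C, TPX2) had none in the table used. Depth was 2604885 to 9072278 counts; at 11 counts, as for CENPA in Control_B, counting error is large.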

Additional observations from a re-analysis of the deposited data

How the results depend on the processing

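Of 18 alternatives, DLGAP5 and ECT2 after serotonin were called in 11 each, with log2 fold changes of 1.19 to 1.61 and 0.95 to 1.42. Leaving out 1 library gave 0 to 6 members called for the line difference after serotonin, 0 to 7 without ligand (7 without Control_BR), 0 to 10 for the serotonin response in the HTR1E-low libraries (10 without Control_BR), 0 to 8 for the difference between the responses and 0 to 2 for the line difference over both treatments. Without ligand, 1 member was called with no filter on low counts (557 genes in all), by DESeq2 (841) and with length and GC offsets (661). The offsets were chosen after seeing the data. The fit without both Control_B and Serotonin_BR, also chosen after seeing the data, is among the 11 settings above. It leaves 1 library in each HTR1E-low group, where spread between libraries cannot be measured. After serotonin, total counts alone gave 0 (264 genes in all). In the HTR1E-low response, DESeq2 gave 3 (10.8% of all genes) and no filter 1. Over both treatments, DESeq2 gave 4 (12.4% of all genes), the offsets 4 and total counts alone 1. Counts without a share of all genes beside them describe the members only. This holds for every count from leaving out 1 library, where the number of all genes called also changed widely between fits. Each of those fits leaves 1 library alone in a group, so spread within that group is not measured. Those counts therefore do not set the members apart from other genes. The causes were not tested. Total counts alone moved the median of all genes by about 0.3 (to 0.37, 0.30 and 0.31) in the line comparisons without ligand, after serotonin and over both treatments, and the members' median to 0.27, 0.45 and 0.32, which turns its sign without ligand. The second letter of the names is not tied to the replicate numbers of the labels, and libraries sharing it hardly deviated together (r = 0.004 and 0.146). With it as a replicate block, 0 members and 331 genes in all were called between the lines after serotonin. DLGAP5 stood at 1.33 (adjusted p = 0.05248, edgeR) and ECT2 at 1.17 (adjusted p = 0.08531, edgeR). In the HTR1E-low response 4 members were called with the block (ECT2, CDCA3, PRC1, AURKB). No share of all genes is given for these 4, so they describe the members only. Depth limits the short, low members most in Control_B.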
